A study of Rattus norvegicus with 12 samples.

Results

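Expression of the proteasome genes was followed in skull-roof bone (calvaria) of rats, collected 72 h after surgery. They were taken by name as every gene symbol on the array made of Psm, a letter from a to g and a number. This gave 48 genes, all of them measured, among the 22718 genes tested in all. The first group had a defect of 8 by 3 mm ablated with an Er:YAG laser, whose infrared light removes mineralised tissue, at 20 Hz and 127 mJ of output per pulse. In the second group a defect of the same size was drilled with a rotating bur. The third group was control bone, which per the treatment protocol lost its periosteum without any ablation. The series design describes this bone as non-treated, so whether control bone had surgery was not settled by the labels. All rats were 10 weeks old, and strain and sex are not given in the sources used here. Each group had 4 arrays, and no label says whether the 4 came from separate animals, so each p-value rests on a spread between arrays that may be technical.

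The proteasome is the protease that takes apart proteins tagged with ubiquitin. Its core is a barrel of outer alpha rings (Psma genes) and inner beta rings (Psmb genes), in which Psmb5, Psmb6 and Psmb7 carry the chymotrypsin-like, caspase-like and trypsin-like activities. A regulatory cap on the barrel binds the ubiquitin chain, removes it and unfolds the substrate with a ring of ATPases (Psmc genes) and a set of scaffold, receptor and deubiquitinase subunits (Psmd genes). Interferon-gamma induces Psmb8, Psmb9 and Psmb10, which replace Psmb5, Psmb6 and Psmb7 in newly built barrels and give the immunoproteasome, whose peptides suit presentation on MHC class I. Blood-forming cells hold immunoproteasome without such induction. Psme genes encode activators that dock in place of the cap, Psmf1 encodes a protein that binds the barrel and inhibits it in vitro, and Psmg genes encode chaperones that assemble the barrel.

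The promoters of the 3 immunoproteasome genes and of the 3 genes whose products they replace are printed because this exchange is known to be driven by interferon, and that of Psmd3 because it had the largest rise of any subunit of the barrel or cap. Each runs from 250 bases before to 50 bases after the gene's start in RefSeq (build GRCr8), 5′ to 3′ on the gene's strand. Capitals mark matches on either strand to the core of the interferon-stimulated response element (GAAA, any NN, then GAAA again), of the gamma-activated site (TTCNNNGAA) or of the antioxidant response element (TGACNNNGC), the last being a site class used by the NRF factors. No capital stretch below overlaps another.
Psmb8, chr20:4656982-4657281, GRCr8, minus strand: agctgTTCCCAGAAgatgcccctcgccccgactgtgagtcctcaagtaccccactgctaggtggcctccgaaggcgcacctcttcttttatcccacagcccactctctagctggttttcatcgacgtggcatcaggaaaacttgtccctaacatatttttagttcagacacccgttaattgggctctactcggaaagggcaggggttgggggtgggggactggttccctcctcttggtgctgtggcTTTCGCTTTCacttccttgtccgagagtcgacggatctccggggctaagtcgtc
Psmb9, chr20:4668750-4669049, GRCr8, plus strand: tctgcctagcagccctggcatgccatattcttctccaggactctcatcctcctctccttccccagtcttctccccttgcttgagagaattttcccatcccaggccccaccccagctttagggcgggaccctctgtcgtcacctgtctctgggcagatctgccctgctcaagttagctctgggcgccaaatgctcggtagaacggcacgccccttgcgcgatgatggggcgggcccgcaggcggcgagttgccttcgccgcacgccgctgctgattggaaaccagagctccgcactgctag
Psmb10, chr19:50743243-50743542, GRCr8, minus strand: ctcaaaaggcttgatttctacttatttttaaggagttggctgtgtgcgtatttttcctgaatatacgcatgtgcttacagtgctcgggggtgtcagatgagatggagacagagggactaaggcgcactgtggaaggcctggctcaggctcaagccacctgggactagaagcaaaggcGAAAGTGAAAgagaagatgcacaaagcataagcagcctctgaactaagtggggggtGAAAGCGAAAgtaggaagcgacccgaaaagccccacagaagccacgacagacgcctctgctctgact
Psmb5, chr15:32047330-32047629, GRCr8, minus strand: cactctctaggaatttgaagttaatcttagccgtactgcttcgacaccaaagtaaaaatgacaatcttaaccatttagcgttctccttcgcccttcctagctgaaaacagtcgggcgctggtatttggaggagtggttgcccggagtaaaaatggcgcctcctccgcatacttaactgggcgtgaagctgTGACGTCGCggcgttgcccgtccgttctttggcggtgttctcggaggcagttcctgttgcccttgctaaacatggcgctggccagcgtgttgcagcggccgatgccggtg
Psmb6, chr10:55737638-55737937, GRCr8, plus strand: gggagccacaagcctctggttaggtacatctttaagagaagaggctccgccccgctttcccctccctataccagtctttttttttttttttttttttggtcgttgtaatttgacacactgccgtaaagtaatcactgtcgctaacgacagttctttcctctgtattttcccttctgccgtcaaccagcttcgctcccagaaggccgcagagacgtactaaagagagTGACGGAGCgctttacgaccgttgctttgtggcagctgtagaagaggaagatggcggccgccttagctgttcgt
Psmb7, chr3:42827421-42827720, GRCr8, minus strand: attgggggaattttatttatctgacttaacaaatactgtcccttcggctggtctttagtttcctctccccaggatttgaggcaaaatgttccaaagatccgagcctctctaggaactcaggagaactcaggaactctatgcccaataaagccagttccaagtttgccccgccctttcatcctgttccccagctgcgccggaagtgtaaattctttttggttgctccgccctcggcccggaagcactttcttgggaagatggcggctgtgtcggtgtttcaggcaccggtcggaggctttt
Psmd3, chr10:84139688-84139987, GRCr8, plus strand: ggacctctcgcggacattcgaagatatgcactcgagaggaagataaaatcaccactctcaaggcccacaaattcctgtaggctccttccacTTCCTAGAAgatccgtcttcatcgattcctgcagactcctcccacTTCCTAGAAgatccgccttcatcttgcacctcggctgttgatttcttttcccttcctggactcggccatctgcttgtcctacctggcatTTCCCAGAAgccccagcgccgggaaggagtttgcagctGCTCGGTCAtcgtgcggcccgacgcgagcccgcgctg
The Psmb8 window held an interferon-stimulated core that began 4 bases before the start and a gamma-activated core near the far end, and the Psmb10 window held an interferon-stimulated core at 73 and again at 17 bases before the start. The Psmb9 window held none of the 3 motifs, and 44 of its bases (chr20:4668750-4668793) lie in the window of Tap1, the peptide transporter gene that sits between Psmb8 and Psmb9 on chromosome 20. Psmb5 and Psmb6 held an antioxidant core each and Psmb7 none of the 3. Of the 43 proteasome genes with a promoter in the table, 7 held the interferon-stimulated core (16.3%, against 3.92% of 33469 promoters), 4 the gamma-activated core (9.3% against 8.87%) and 8 the antioxidant core (18.6% against 12.1%). A match is a stretch of letters, and binding was not measured.

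Values below are log2 signals relative to the 75th percentile of the same array, so a value of 0 is a signal equal to that percentile, and differences are log2 differences of group means, ablated minus control. Each probe is compared with itself between groups, since probes differ in brightness for reasons of their own sequence. The share of probes well above background was 59.8% to 65.5% on laser, 63.0% to 67.0% on bur and 58.1% to 60.0% on control arrays. Bur and control did not overlap in it, and no spot was saturated. Arrays of a group correlated at 0.975 to 0.984 for laser, 0.979 to 0.983 for bur and 0.948 to 0.98 for control. All laser and bur arrays were on 1 slide and all control arrays on another, so slide and treatment cannot be told apart where ablated bone is set against control bone. Control replicate 3 lay nearest the ablated arrays on the first principal component, at 6.67, where the other control arrays lay between 55.5 and 122 and the laser and bur arrays between -53.1 and -7.43. Of the 48 proteasome genes, 47 were well above background on all 12 arrays. The exception was Psma8, an alpha subunit known in the mouse from the testis, which passed on 1 laser, 4 bur and 1 control arrays. In RefSeq, 19 of the 48 have a pseudogene or a like-named copy, among them Psma7, Psmb3, Psmb6, Psmb7, Psmd14, Psme1 and Psme2, and hybridisation of a copy to their probes was not tested.

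Bur bone had higher signal of several cap and core subunits than control bone. In laser bone 3 cap subunits and a chaperone gene were higher and no core subunit passed in the fit used here. The inhibitor gene Psmf1 was lower in both. With quantile normalization, or on the authors' deposited log2 table, the core genes Psma7, Psmb3, Psmb6 and Psmb7 passed as higher in laser bone. In laser bone 4 of the 48 genes were higher than in control bone at an adjusted p under 0.05 (8.33%), and 1 was lower (2.08%). Across all genes tested, 9.26% were higher and 13% lower in that comparison, so in this fit the share of proteasome genes that were higher in laser bone was near the background. That share moved with the processing. In bur bone 12 of the 48 were higher (25%) and 1 was lower (2.08%), where 9.99% of all genes were higher and 16.2% lower. The 4 genes that were higher in laser bone, Psmd3, Psmd4, Psmd7 and Psmg3, were also among the 12 in bur bone, and Psmf1 was the lower one in both. The 2 comparisons share the control arrays. No rise passed in laser bone without laser replicate 2, laser replicate 3 or control replicate 1, and in bur bone 6 genes were higher without bur replicate 1 and 5 without control replicate 1. Calls over all 22718 genes fell too. Without control replicate 1, 449 genes were higher in laser bone and 878 in bur bone, against 2103 and 2270 with every array. With each of the 12 arrays left out in turn, Psma7, Psmd3, Psmd4, Psmd7 and Psmd12 were higher in bur bone in all 12 fits, the other bur rises but Psmc3 in 7 to 11, and Psmc3 in 1. For Psma7 this holds at its brighter probe, and its dimmer probe had a bur difference of -0.28. In laser bone Psmd4 was higher in 9 of the 12 fits, Psmd3 and Psmg3 in 7 each and Psmd7 in 4.

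**Figure D1:**
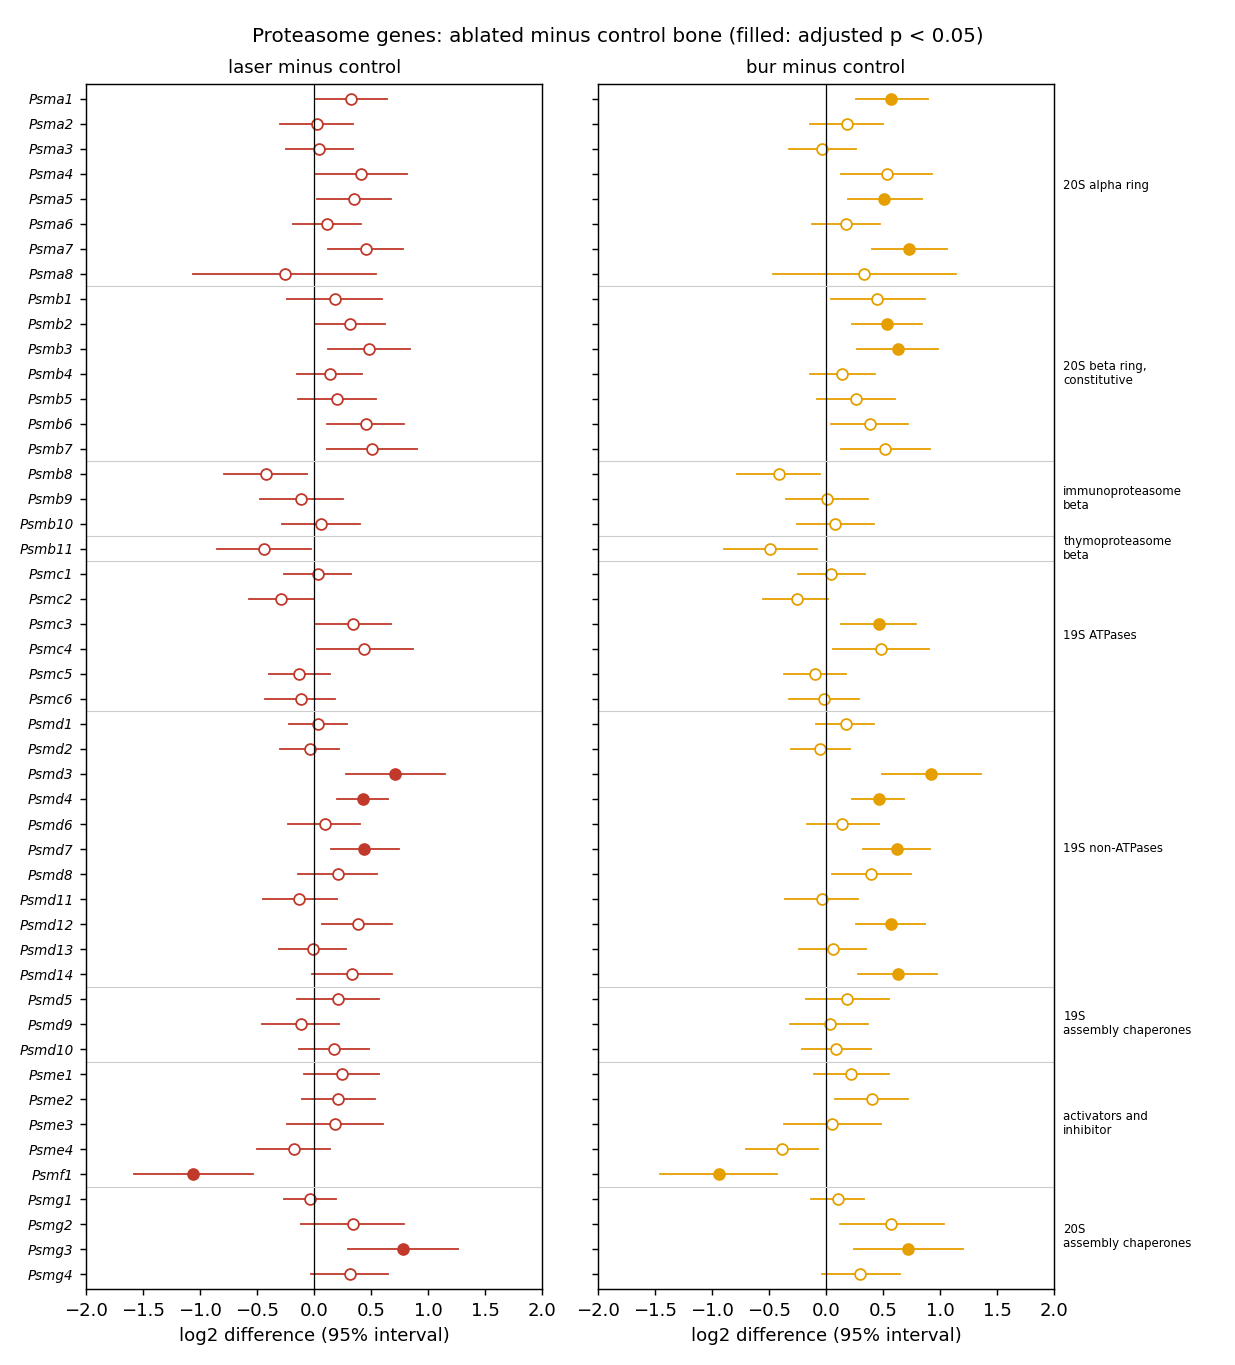
Log2 difference from control (horizontal axis, with 95% interval) of each of the 48 proteasome genes, for laser on the left and bur on the right, in rows grouped by role. Filled points passed an adjusted p of 0.05. Most points lie right of 0, the filled ones among them are 4 for laser and 12 for bur, and Psmf1 lies far to the left in both panels at -1.06 for laser and -0.94 for bur.

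The direction of the signed differences was uneven as well. The log2 difference was above 0 for 34 of 48 genes in laser minus control (70.8%, against 51.3% of all genes) and for 38 of 48 in bur minus control (79.2%, against 50% of all genes). For the 31 subunits of the constitutive barrel and cap, leaving out Psma8, the median log2 difference was 0.21 in laser and 0.39 in bur, where the medians of all genes were 0.02 and 0. Of these 31, 3 were higher in laser bone and 11 in bur bone, none was lower in either, and 25 had a difference above 0 in each. In all 48 genes, every laser array was above every control array for 8 (16.7%, against 8.87% of all genes) and below for Psmf1 (2.08%, against 10.1%). Every bur array was above every control array for 12 (25%, against 9.6%) and below for 3, Psmb8, Psmb11 and Psmf1 (6.25%, against 15.7%). In whole bone, fewer cells of a type and less RNA per cell cannot be told apart, and this holds for every difference given here.

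In the cap, the non-ATPase subunits held most of the rises. Psmd3, a scaffold subunit of the lid of the cap (probe chr10:87466177-87466236, rn4), had values of -2.26, -2.03, -1.92 and -2.70 in laser bone, -1.95, -1.86, -2.02 and -2.25 in bur bone and -3.33, -2.98, -2.60 and -2.87 in control bone. All bur arrays were above all control arrays, while laser replicate 4 fell among the control values. Psmd3 rose by 0.71 in laser (SE 0.20, 1.64-fold, adjusted p = 0.030) and by 0.92 in bur (SE 0.20, 1.89-fold, adjusted p = 0.010), the largest rise among the proteasome genes in bur bone.

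Psmd4 encodes a ubiquitin receptor of the cap (chr2:189933368-189933427) and had narrow groups. It read 1.85, 1.90, 2.05 and 1.93 in laser bone, 1.97, 1.86, 2.02 and 2.01 in bur bone and 1.48, 1.43, 1.56 and 1.54 in control bone. No ablated array overlapped a control array. The rise was 0.43 in laser (SE 0.10, 1.35-fold, adjusted p = 0.020) and 0.46 in bur (SE 0.10, 1.37-fold, adjusted p = 0.012).

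Psmd7 and Psmd14 encode the pair of lid subunits that forms the deubiquitinase module, with Psmd14 as the active enzyme. Psmd7 (chr19:37452992-37453051) read -0.44, -0.40, -0.48 and -0.34 in laser bone, -0.09, -0.46, -0.40 and -0.02 in bur bone and -1.05, -0.87, -0.67 and -0.85 in control bone, with no overlap between ablated and control arrays. It rose by 0.44 in laser (SE 0.14, 1.36-fold, adjusted p = 0.039) and by 0.62 in bur (SE 0.14, 1.53-fold, adjusted p = 0.011). With the replicate number as a block, the laser value passed no longer (adjusted p = 0.052), though whether the numbers mark pairs was not settled. Psmd14 (chr3:43696292-43699023) read -1.21, -0.98, -1.11 and -1.20 in laser bone, -0.69, -0.97, -0.88 and -0.78 in bur bone and -1.72, -1.71, -1.33 and -1.05 in control bone. Its bur arrays stood above every laser array and every control array, and its laser arrays overlapped the control arrays. Psmd14 rose by 0.63 in bur (SE 0.16, 1.54-fold, adjusted p = 0.018), while its laser difference was 0.33 (SE 0.16, adjusted p = 0.15).

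Of the 11 non-ATPase subunits of the cap, 3 were higher in laser bone and 5 in bur bone, with a median difference of 0.21 and 0.39. The fifth in bur bone was the lid scaffold gene Psmd12, at 0.57 (adjusted p = 0.016), against 0.38 in laser (adjusted p = 0.070). Psmd1 and Psmd2, the largest scaffolds of the base, had differences of 0.03 and -0.04 in laser and 0.17 and -0.05 in bur. Of the 6 ATPases, none was called in laser bone, and in bur bone Psmc3 was higher by 0.46 (adjusted p = 0.045). That call was lost without a detection filter, with only the 2 groups compared, with the replicate block and in 11 of the 12 fits that left out an array. The other 5 ATPases ran from -0.29 for Psmc2 to 0.44 for Psmc4 in laser and from -0.26 for Psmc2 to 0.48 for Psmc4 in bur, so the ring of ATPases had a median of -0.05 and 0.01. The 3 chaperone genes of the base, Psmd5, Psmd9 and Psmd10, had differences of -0.12 to 0.21 in laser and 0.03 to 0.18 in bur, and none passed.

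Psmd11, a lid subunit gene, had a probe in each of 2 places that gave different answers. Its brighter probe, which stands for the gene, had a log2 difference of -0.13 in laser and -0.04 in bur. Its dimmer probe read -3.11, -3.16, -2.92 and -2.68 in laser bone, -3.21, -3.22, -3.36 and -2.77 in bur bone and -2.33, -2.35, -2.70 and -2.27 in control bone. That probe was lower by 0.55 on the log2 scale in laser (log2 difference -0.55, SE 0.17, adjusted p = 0.041) and had a log2 difference of -0.73 in bur (SE 0.17, adjusted p = 0.014), with adjustment over all kept probes.

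In the barrel, subunit genes passed the threshold in bur bone and none did in laser bone. Several laser differences were just short of it in limma. Those of Psma7, Psmb3, Psmb6 and Psmb7 were 0.45 to 0.51, at adjusted p of 0.051 to 0.061. No barrel gene was called in laser minus bur. Of the 8 alpha subunit genes, none was called in laser bone and 3 were higher in bur bone, Psma7 at 0.73, Psma1 at 0.57 (adjusted p = 0.017) and Psma5 at 0.51 (adjusted p = 0.029). Psma7 (chr3:169102472-169103179) read 1.89, 2.19, 2.17 and 2.01 in laser bone, 2.61, 2.16, 2.13 and 2.46 in bur bone and 1.46, 1.47, 1.68 and 1.84 in control bone. Every ablated array was above every control array. The rise was 1.66-fold in bur (SE 0.15, adjusted p = 0.0089), and the laser difference was 0.45 (SE 0.15, adjusted p = 0.051). The dimmer probe of Psma7 went the other way, with -0.37 in laser (adjusted p = 0.088) and -0.28 in bur (adjusted p = 0.17), and with the mean of both probes the bur difference was 0.22 (adjusted p = 0.18). Psma2, Psma3 and Psma6 had differences of 0.02, 0.04 and 0.11 in laser and 0.18, -0.04 and 0.17 in bur.

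Among the 7 constitutive beta subunits, all of which had a difference above 0 in both comparisons, 2 were higher in bur bone and none passed in laser bone. Psmb3, a structural beta subunit without a protease site (chr10:86456612-86456671), read 1.46, 1.80, 1.89 and 1.94 in laser bone, 2.04, 1.61, 1.85 and 2.15 in bur bone and 1.13, 1.17, 1.29 and 1.57 in control bone. The bur arrays were all above the control arrays, and laser replicate 1 lay under control replicate 4. Psmb3 rose by 0.63 in bur (SE 0.16, 1.54-fold, adjusted p = 0.020) and had a difference of 0.48 in laser (SE 0.16, adjusted p = 0.055), which passed with the replicate block (adjusted p = 0.040). Psmb2, another structural beta subunit gene, rose by 0.53 in bur (adjusted p = 0.020) and had a difference of 0.31 in laser (adjusted p = 0.12).

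Of the 4 chaperones that assemble the barrel, only Psmg3 was called in the fit on the brightest probes. Psmg3 (chr12:15287872-15287931) read -2.23, -1.94, -1.83 and -1.80 in laser bone, -1.97, -2.28, -2.10 and -1.69 in bur bone and -3.31, -2.87, -2.42 and -2.32 in control bone. Every ablated array was above every control array, and the control arrays were the widest group. It rose by 0.78 in laser (SE 0.22, 1.71-fold, adjusted p = 0.031) and by 0.72 in bur (SE 0.22, 1.65-fold, adjusted p = 0.035). Its second probe (chr12:15287274-15287333) had differences of -0.59 in laser (adjusted p = 0.13) and -0.56 in bur (adjusted p = 0.14), and with the mean of both probes Psmg3 had 0.09 and 0.08 (adjusted p = 0.77 and 0.80). Psmg1, Psmg2 and Psmg4 had -0.04, 0.34 and 0.31 in laser and 0.10, 0.57 and 0.30 in bur.

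**Figure D2:**
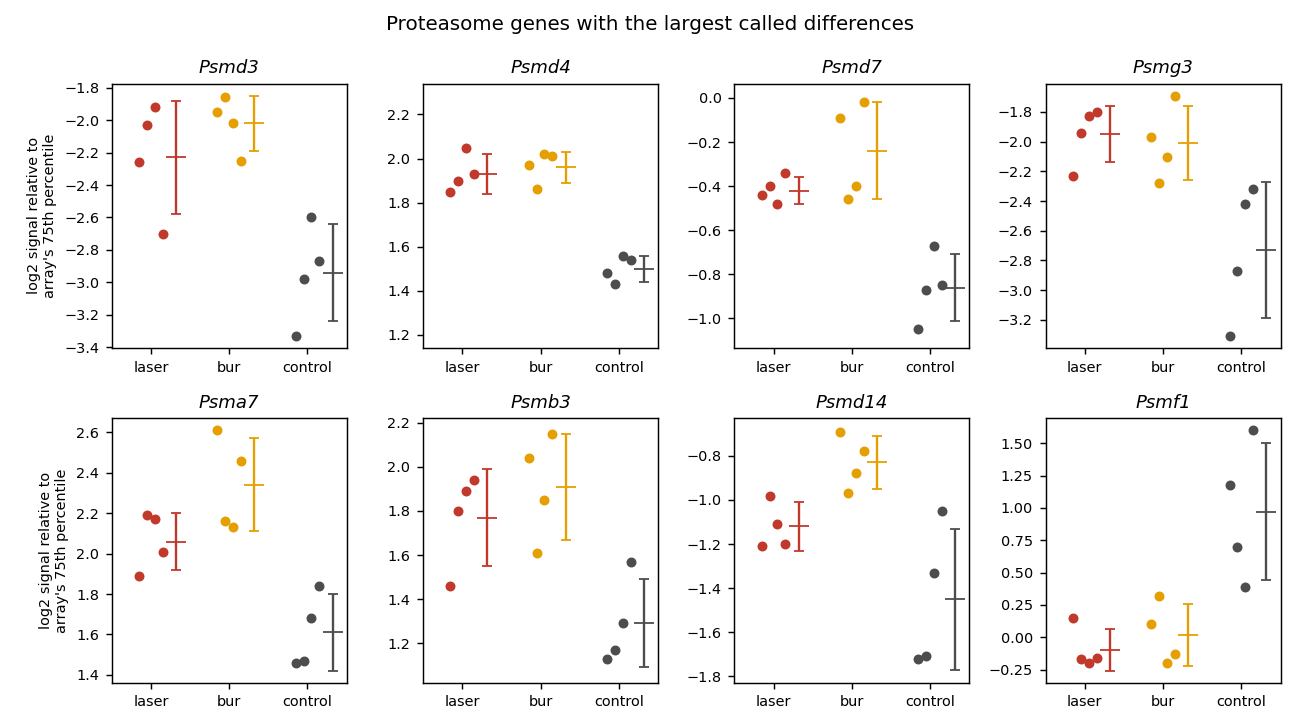
Log2 signal relative to the array's 75th percentile (vertical axis) of 8 proteasome genes on each array of the laser, bur and control groups, with the group mean and SD (n = 4) to the right of the points. In the panels of Psmd4, Psmd7, Psmg3 and Psma7 the ablated arrays all sit above the control arrays, and in the panel of Psmf1 they all sit below them.

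Psmf1, the gene of the proteasome inhibitor, had the largest difference of all 48 genes and, at the brightest probe of each gene, the only fall. It read 0.15, -0.17, -0.20 and -0.16 in laser bone, 0.10, 0.32, -0.20 and -0.13 in bur bone and 1.18, 0.70, 0.39 and 1.60 in control bone (probe chr3:142058716-142058775). No ablated array reached a control value. The log2 difference was -1.06 in laser (SE 0.24, 2.09-fold lower, adjusted p = 0.017) and -0.94 in bur (SE 0.24, 1.92-fold lower, adjusted p = 0.017). Red-cell precursor markers moved with it. The summed linear signal of 11 erythroid markers, scaled in the same way, was 25.2 to 80.1 in laser bone, 18.5 to 77.5 in bur bone and 83.4 to 368 in control bone. On the control arrays it was 276, 190, 83.4 and 368, in the same order as the Psmf1 values, and 11 of 11 erythroid markers were lower in laser bone and 10 of 11 in bur bone. That order was not particular to erythroid markers. The control arrays had it also in the cell cycle sum (28.5, 22.2, 15.3 and 42.7) and the T and NK cell sum (8.68, 5.50, 4.28 and 14.5). Without Nkg7 the T and NK cell sum was 2.33, 1.51, 1.71 and 2.76, so control replicates 2 and 3 changed places. Within the laser and the bur group the erythroid sum and Psmf1 were ordered differently. The part of any of these cells in the fall of Psmf1 was not tested. Without control replicate 1 the Psmf1 fall passed in neither comparison, at an adjusted p of 0.053 in each.

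Of the activators, Psme1 and Psme2, the interferon-inducible pair that opens the barrel, had values above control on average and did not pass. Psme1 (chr15:33715651-33715710) read 2.53, 2.85, 3.00 and 2.92 in laser bone, 3.10, 2.71, 2.83 and 2.59 in bur bone and 2.64, 2.37, 2.69 and 2.65 in control bone, and the groups overlapped. Its differences were 0.24 in laser (SE 0.15, adjusted p = 0.26) and 0.22 in bur (SE 0.15, adjusted p = 0.29). Psme2 (chr15:33723033-33723182) read 3.14, 3.25, 3.17 and 3.41 in laser bone, 3.67, 3.17, 3.52 and 3.38 in bur bone and 2.96, 2.81, 3.26 and 3.08 in control bone. Control replicate 3 stood inside the range of both ablated groups. The differences of Psme2 were 0.21 in laser (SE 0.15, adjusted p = 0.30) and 0.40 in bur (SE 0.15, adjusted p = 0.060). The nuclear activators Psme3 and Psme4 had 0.18 and -0.18 in laser and 0.05 and -0.39 in bur, and neither passed.

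The immunoproteasome subunits were not among the genes that rose. None of Psmb8, Psmb9 and Psmb10 was called in either comparison with control, and Psmb8 had a difference below 0 in both. Psmb8, the counterpart of Psmb5, read 2.10, 2.00, 2.03 and 2.26 in laser bone, 2.25, 2.10, 2.25 and 1.84 in bur bone and 2.62, 2.26, 2.28 and 2.92 in control bone (chr20:4786260-4786319). The highest bur array was just under the lowest control array, and laser replicate 4 equalled that control array to 2 decimals. Its log2 difference was -0.42 in laser (SE 0.17, 95% interval -0.79 to -0.06, adjusted p = 0.086) and -0.41 in bur (SE 0.17, 95% interval -0.78 to -0.05, adjusted p = 0.087). Without control replicate 3 it passed as lower in both, at -0.50 in laser (adjusted p = 0.046) and -0.49 in bur (adjusted p = 0.048).

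The second probe of Psmb8 (chr20:4787006-4787484), matched to the RefSeq transcript, showed less. It read -0.21, -0.05, -0.02 and 0.10 in laser bone, 0.25, 0.19, 0.15 and -0.03 in bur bone and -0.21, -0.28, -0.20 and 0.54 in control bone, so that 1 control array was above all others and 3 were near the lowest. Its differences were -0.01 in laser (adjusted p = 0.98) and 0.18 in bur (adjusted p = 0.48). Among the control arrays, several marker sums were highest in replicates 1 and 4, as was Psmb8 at the brighter probe. They were the erythroid, neutrophil, B cell, T and NK cell, and cell cycle sums. The B cell sum (4.75, 3.32, 3.95 and 9.16) followed the full order of Psmb8 on the control arrays, as did the T and NK cell sum without Nkg7. The summed signal of the 13 T and NK cell markers was 1.87 to 3.97 in laser bone, 1.90 to 4.21 in bur bone and 8.68, 5.50, 4.28 and 14.5 on the control arrays. Nkg7 made up 47.4% to 81.0% of it, and without Nkg7 the sum was 0.685 to 1.21 in laser bone, 0.922 to 1.29 in bur bone and 2.33, 1.51, 1.71 and 2.76 on the control arrays. Single markers differed from the sum: both Cd8a and Cd2 were lowest on control replicate 1 among the control arrays. In log2 signal Cd8a was -5.07, -3.62, -4.28 and -4.37 and Cd2 was -7.57, -6.34, -6.42 and -6.68 on the control arrays. The part of any of these cells in the Psmb8 values was not tested.

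Psmb9, the counterpart of Psmb6, read 1.06, 1.12, 1.05 and 1.13 in laser bone, 1.55, 1.21, 1.29 and 0.83 in bur bone and 1.23, 0.94, 1.14 and 1.5 in control bone (chr20:4806341-4806400). The laser arrays lay close together inside the control range, and the bur arrays spread past it on both sides. The difference was -0.12 in laser (SE 0.17, 95% interval -0.48 to 0.25, adjusted p = 0.63) and 0.01 in bur (SE 0.17, 95% interval -0.35 to 0.37, adjusted p = 0.96). Psmb10, the counterpart of Psmb7, read 2.67, 2.69, 2.91 and 2.80 in laser bone, 3.24, 2.70, 2.71 and 2.53 in bur bone and 2.67, 2.60, 2.76 and 2.83 in control bone (chr19:35777711-35777770). Bur replicate 1 was the highest array and the groups overlapped. The difference was 0.06 in laser (SE 0.15, 95% interval -0.28 to 0.40, adjusted p = 0.81) and 0.08 in bur (SE 0.15, 95% interval -0.26 to 0.42, adjusted p = 0.72).

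The 3 catalytic subunits of the constitutive barrel had differences above 0 in both comparisons, and none passed. Psmb5 read 2.03, 2.25, 2.29 and 2.33 in laser bone, 2.45, 2.18, 1.99 and 2.54 in bur bone and 2.03, 1.85, 1.93 and 2.31 in control bone (chr15:32690134-32690193), with overlap and differences of 0.20 in laser (SE 0.16, adjusted p = 0.37) and 0.26 in bur (SE 0.16, adjusted p = 0.23). Psmb6 read 2.49, 2.39, 2.63 and 2.88 in laser bone, 2.5, 2.21, 2.59 and 2.82 in bur bone and 2.19, 2.14, 2.26 and 2.00 in control bone (chr10:57372598-57372657). The laser arrays were all above the control arrays, and bur replicate 2 was not. The Psmb6 differences were 0.45 in laser (SE 0.16, adjusted p = 0.058) and 0.38 in bur (SE 0.16, adjusted p = 0.089). Psmb7 read -0.05, 0.34, 0.37 and 0.52 in laser bone, 0.49, 0.21, 0.11 and 0.41 in bur bone and -0.55, -0.31, -0.14 and 0.16 in control bone (chr3:18413231-18433105). Control replicate 4 was the one control array inside the ablated range, and the differences were 0.51 in laser (SE 0.18, adjusted p = 0.061) and 0.52 in bur (SE 0.18, adjusted p = 0.052).

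**Figure D3:**
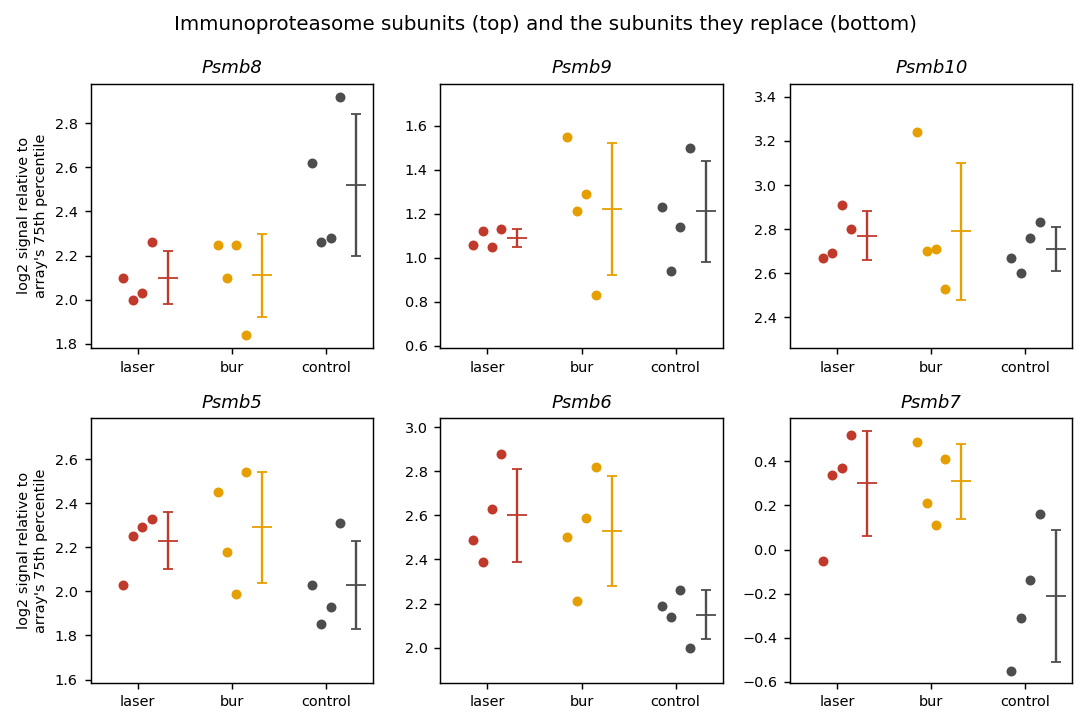
Log2 signal relative to the array's 75th percentile (vertical axis) of Psmb8, Psmb9 and Psmb10 in the top row and of Psmb5, Psmb6 and Psmb7 below them, for each array of the laser, bur and control groups with group mean and SD (n = 4). The means of Psmb8 are 2.10 in laser, 2.11 in bur and 2.52 in control bone, while those of Psmb7 are 0.30, 0.31 and -0.21.

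Set against its counterpart on the same array, each immunoproteasome subunit was lower in ablated bone on average. These ratios describe unequal change within an array, have no test, and are given as log2 less the control mean. For Psmb8 over Psmb5 the ratio was -0.43, -0.75, -0.75 and -0.56 in laser bone, -0.69, -0.58, -0.24 and -1.19 in bur bone and 0.10, -0.09, -0.14 and 0.12 in control bone. All ablated arrays were below all control arrays, at a mean of -0.62 ± 0.15 in laser and -0.67 ± 0.40 in bur (SD, n = 4 each). With the second probe of Psmb8 the ratio averaged -0.21 ± 0.04 in laser, -0.08 ± 0.32 in bur and 0 ± 0.21 in control bone, with overlap. For Psmb9 over Psmb6 the mean was -0.56 ± 0.21 in laser, -0.37 ± 0.48 in bur and 0 ± 0.32 in control bone. The laser arrays were all below the control arrays, and the bur arrays overlapped them. For Psmb10 over Psmb7 the mean was -0.45 ± 0.20 in laser, -0.44 ± 0.27 in bur and 0 ± 0.23 in control bone, and both overlapped control.

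**Figure D4:**
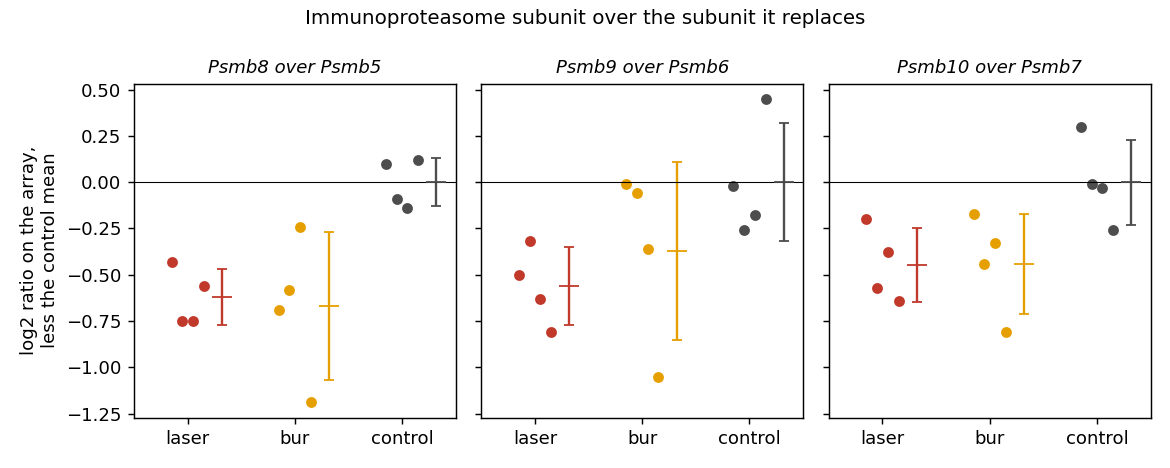
Log2 ratio on each array of an immunoproteasome subunit over the subunit it replaces, less the mean of the control arrays (vertical axis), for the laser, bur and control groups with mean and SD (n = 4). In the Psmb8 over Psmb5 panel the ablated arrays lie between -1.19 and -0.24 and the control arrays between -0.14 and 0.12.

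Between the ablated groups no proteasome gene passed. Laser minus bur gave 0 of 48 genes higher and 0 lower at an adjusted p under 0.05 in limma (0% of all genes in each direction), and 0 of 48 had an unadjusted p under 0.05, where 574 of 22718 genes did (2.53%). The log2 difference was above 0 for 11 of 48 (22.9%, against 54.1% of all genes), and the median was -0.08. Psmd14 was the one gene whose groups did not overlap, with every laser array below every bur array and a log2 difference of -0.30 (95% interval -0.65 to 0.05, adjusted p = 1). Across all genes, 0.581% did not overlap in that direction. For Psmb8 the log2 difference was -0.01 (95% interval -0.38 to 0.36), for Psmb9 -0.13 (95% interval -0.49 to 0.23) and for Psmb10 -0.02 (95% interval -0.36 to 0.32). Both groups were on the same slide, laser in column 2 and bur in column 1.

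Psmb11 and Psma8, subunits known from the thymus and, in the mouse, the testis, were dim. Psmb11 averaged -4.65 in laser bone, -4.71 in bur bone and -4.22 in control bone, and its bur arrays were all below the control arrays. The differences were -0.44 in laser (adjusted p = 0.11) and -0.49 in bur (adjusted p = 0.071). Psma8 averaged -7.07 in laser bone, -6.48 in bur bone and -6.81 in control bone. Since it was well above background on all bur arrays but on only 1 laser and 1 control array, no difference is given. Without Psma8 the log2 difference was above 0 for 34 of 47 genes in laser (72.3%) and for 37 of 47 in bur (78.7%).

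Partners and regulators of the proteasome moved in both directions. Of 19 measured genes on that list, 2 were higher and 4 lower in laser bone, and 6 were higher and 3 lower in bur bone, with medians of -0.07 and -0.15. Across all genes tested, 9.26% were higher and 13% lower in laser bone, and 9.99% and 16.2% in bur bone. The polyubiquitin gene Ubb fell by 0.67 in laser (log2 difference -0.67, adjusted p = 0.023) and by 0.56 in bur (-0.56, adjusted p = 0.035). Adrm1, the gene of another ubiquitin receptor of the cap, fell by 0.45 in laser (-0.45, adjusted p = 0.043) and by 0.63 in bur (-0.63, adjusted p = 0.012), opposite to the receptor gene Psmd4. Uchl5, whose deubiquitinase docks on the Adrm1 product, was lower in laser bone (-0.50, adjusted p = 0.043) and had -0.38 in bur (adjusted p = 0.095). Higher in bur bone were Ubqln2 at 0.52 (adjusted p = 0.033), a shuttle gene, and Vcp at 0.46 (adjusted p = 0.020), the ATPase that extracts proteins ahead of the proteasome. Ubqln2 was higher in laser bone too, at 0.48 (adjusted p = 0.048).

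Genes of MHC class I peptide loading, the pathway fed by the immunoproteasome, were called in few cases. Of 10 genes none was higher and 1 lower in laser bone, and 2 were higher and 1 lower in bur bone. The shares over all genes were 9.26% higher and 13% lower in laser bone, and 9.99% and 16.2% in bur bone. Nlrc5, the transcriptional activator of MHC class I genes, was the lower one, at -0.70 in laser (adjusted p = 0.043) and -0.75 in bur (adjusted p = 0.031). The 2 higher ones in bur bone were chaperone genes of the endoplasmic reticulum, Pdia3 at 0.92 (adjusted p = 0.014) and Calr at 0.37 (adjusted p = 0.030).

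Of 23 measured genes of interferon signalling and its targets, 4 were higher and 1 lower in laser bone, and 2 were higher and 1 lower in bur bone. Over all genes, 9.26% were higher and 13% lower in laser bone, and 9.99% higher and 16.2% lower in bur bone. Ifng, the gene of interferon-gamma, and Ifit1 were listed and were not among the genes tested. Cxcl10, a chemokine induced by interferon, averaged -1.15 in laser bone, -2.13 in bur bone and -3.62 in control bone, a difference of 2.47 in laser (adjusted p = 0.032) and 1.48 in bur (adjusted p = 0.14). Jak2, a kinase of the interferon-gamma receptor, rose by 0.60 in laser (adjusted p = 0.019) and 0.59 in bur (adjusted p = 0.014). Irf9, a subunit of the type I interferon factor, had -0.83 in laser (adjusted p = 0.036) and -1.06 in bur (adjusted p = 0.013). Cxcl11 passed in both comparisons and Socs1 in laser, but they were well above background on only 5 and 4 of the 12 arrays, so no fold is given. Without Cxcl11 and Socs1, 2 of 21 genes were higher in laser bone and 1 in bur bone.

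Markers of marrow and bone cells also differed between ablated and control bone. The counts below stand beside all-gene shares of 9.26% higher and 13% lower in laser bone, and 9.99% and 16.2% in bur bone. Of 10 neutrophil markers 6 were lower in laser bone and 5 in bur bone, with a summed signal of 51.5 to 264 in laser, 120 to 208 in bur and 198 to 555 in control bone. Of 9 B cell markers 2 were lower in laser and 3 in bur bone (1.92 to 3.54, 2.20 to 3.65 and 3.32 to 9.16 in control), and of 13 T and NK cell markers 6 and 5 were lower and 1 higher in each. Of 12 macrophage markers 3 were higher in laser and 5 in bur bone, with a summed signal of 151 to 169 in laser, 145 to 171 in bur and 141 to 185 in control bone. Lyz2 alone made up 72.9% to 93.4% of that sum, and the other 11 markers summed to 22.6 to 41.0 in laser, 22.3 to 41.6 in bur and 9.31 to 20.6 in control bone. Of 7 osteocyte markers 5 were higher in laser and 1 in bur bone (25.6 to 67.9 in laser, 23.3 to 52.4 in bur and 12.5 to 21.5 in control), and of 9 osteoblast markers 4 and 1 were higher (698 to 858, 549 to 826 and 556 to 842 in control). Of 10 cell cycle genes 4 and 5 were lower (11.8 to 16.4 in laser, 11 to 16.1 in bur and 15.3 to 42.7 in control). Every measured osteocyte and osteoblast marker was well above background on all 12 arrays, which bears on the tissue label. The filter asks for at least 4 arrays well above background, so no measured marker of any list could be below background on all of them. Fgf23 (osteocyte), Hba-a2 (erythroid), Ltf (neutrophil) and Cd5 (T and NK cell) were listed and were not among the genes tested. The part of these cells in the proteasome differences was not tested.

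The authors' deposited tables of the same comparisons hold 51 lines for 47 proteasome genes. In the authors' deposited table of laser minus control, 9 lines were higher and 2 lower at an adjusted p under 0.05. Among these higher lines were the core genes Psma7, Psmb3, Psmb6 and Psmb7, which did not pass in laser bone in the fit used here. In the authors' deposited table of bur minus control, 16 were higher and 4 lower, and in that of laser minus bur none was called. The share of all lines called in the authors' deposited tables was not counted here. These counts therefore cannot be set against a background. Psmd11's dimmer probe, with -0.47, and Psme4, with -0.43, were among the lower lines of the authors' deposited table for bur. Both Psmg3 probes were called there, in opposite directions, with 0.77 and -0.45 in the authors' deposited table for laser and 0.72 and -0.40 in the authors' deposited table for bur. For Psmb8, Psmb9 and Psmb10 no line passed in the authors' deposited tables.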

How the data were processed

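RNA of 12 samples was measured on Agilent arrays of 1 colour, and the scanner intensity of each spot was deposited. Per the file headers it came from Agilent Feature Extraction 11.0.1.1, was background-subtracted within the array, and carries probe positions of build rn4. A table of log2 values, named by the authors as quantile normalized, was deposited as well and, for each comparison, log2 changes with p-values. Other steps behind them are not given in the sources used here. Here, log2 of the processed intensity minus the array's 75th percentile was used. Spots with outlier flags were left out, a probe had to be well above background on at least 4 arrays, and the brightest kept probe stood for a gene. limma 3.58.1 in R 4.3.3 (lmFit, eBayes, two-sided) was run on all 12 arrays with a mean per group, and Benjamini-Hochberg adjustment ran over 22718 genes. The fit was tested on simulated data. The proteasome genes and the lists of other genes were chosen with earlier results of these data known. Every proteasome gene could be named, and array values are given for the immunoproteasome subunits, their counterparts, Psme1, Psme2 and the members past the threshold with the largest changes. From other lists, up to 5 passing genes a comparison could be named. A gene that this rule took is not reported here. Same-numbered arrays deviated together from their group means for laser and bur (correlations 0.158 to 0.341) and for laser and control (0.126 to 0.336), and not throughout for bur and control (-0.05 to 0.284). Unlike numbers reached 0.125 for laser replicate 2 with control replicate 3 and 0.321 for bur replicate 2 with control replicate 4. The replicate number was also the row on the slide. Whether the numbers mark paired samples or slide position was therefore not settled. The fit above has no block, and the blocked fit was an alternative. Alternatives changed the background correction, scaling, filter, choice of probe, block, samples and array weights. Symbols of 43 of the 48 genes were matched by accession in RefSeq (GRCr8), all unchanged.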

Additional observations from a re-analysis of the deposited data

Results flagged for a closer look

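Of 144 groups of 4 arrays, 48 genes in 3 groups, 6 held an array that stood far from the other 3, where chance gives about 1 in 20. In scaled log2 signal, Psma3, an alpha subunit gene, was -0.28 on laser replicate 4, above -0.49 to -0.46 on the other laser arrays. The ATPase gene Psmc1 was 3.39 on the same array, above 2.97 to 3.03 on the others. Control replicate 4 stood high for the ATPase gene Psmc3, at 0.82 where the other control arrays read 0.19 to 0.23, and for the lid subunit gene Psmd8, at -0.13 where they read -0.81 to -0.70. The activator gene Psme1 was low on control replicate 2, at 2.37 where the others read 2.64 to 2.69. Psmf1, the inhibitor gene, was 0.15 on laser replicate 1, above -0.20 to -0.16 on the other laser arrays, and that array also had the highest erythroid marker sum of the laser group (80.1, against 25.2 to 42.1). The neutrophil, T and NK cell, and cell cycle sums of the laser group were highest there too (264, 3.97 and 16.4), and the B cell sum was not. Without control replicate 4, Psmc3 passed as higher in laser and bur bone, and without any other single array it passed in neither. The causes of these values were not tested.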

How the results depend on the processing

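Counts of called proteasome genes moved with the processing. In laser against control, where 4 were higher, the count was 7 with normexp background correction and with genes detected on all 12 arrays, 9 with quantile normalization and with the percentile over probes detected on all arrays, 8 on the deposited log2 table (44 of the genes), 1 without a detection filter, 0 with only the 2 groups compared and 15 with array weights, which also gave 2 lower. In bur against control, where 12 were higher and 1 lower, array weights gave 21 and 3, and normexp, the deposited log2 table and the replicate block gave 3, 3 and 2 lower. The bur count of higher genes was 18 with normexp, quantile normalization or the percentile over probes detected on all arrays. It was 16 with genes detected on all 12 arrays and 14 on the deposited log2 table. Lower counts were 11 without a filter, 10 with the mean of kept probes and 9 with only the 2 groups. Over all genes, laser against control had 2103 higher and 2958 lower, against 1187 higher with normexp, 1199 without a filter, 651 higher and 1107 lower with only the 2 groups and 3534 higher with array weights. Bur against control had 2270 higher and 3678 lower, against 6306 lower with normexp, 5750 lower without a filter, and 1483 higher with only the 2 groups and 3631 with array weights. Its higher genes were 1646 with normexp, 2948 with quantile normalization and 2937 with the percentile over probes detected on all arrays. They were 2112 with genes detected on all 12 arrays, 2660 on the deposited log2 table, 2108 without a filter and 2263 with the mean of kept probes. Laser against bur gave 1 gene without a filter. Normexp moved the median of all genes to -0.08 in laser, -0.24 in bur and 0.13 in laser minus bur, and the absence of a filter moved it to -0.14 in bur. The cause was not tested.

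Leaving out 1 array in turn, laser against control had 0 to 8 proteasome genes higher and 0 to 3 lower (all genes 449 to 3861 and 796 to 4133), and bur against control 5 to 16 and 0 to 4 (878 to 3794 and 1911 to 4603). The laser count was 0 without laser replicate 2, laser replicate 3 or control replicate 1, 1 without control replicate 2, 2 without laser replicate 4 and 8 without control replicate 3. The bur count was 6 without bur replicate 1 and 5 without control replicate 1. The single lower gene became 0 without control replicate 1 in both comparisons, 3 in laser and 4 in bur without control replicate 3, 2 in both without laser replicate 1 and 2 in bur without control replicate 4. Psmb8 ran from -0.51 to -0.29 in laser and from -0.50 to -0.28 in bur. In bur, Psmb9 ran from -0.10 to 0.14 and Psmb10 from -0.07 to 0.17. Psmb9, at 0.01 in bur, turned sign with normexp (-0.05), the deposited log2 table (-0.10) and without bur replicate 1 (-0.10), bur replicate 3 (-0.01), control replicate 2 (-0.08) or control replicate 3 (-0.01), Psmb10 without bur replicate 1 (-0.07), and Psmb9 in laser with array weights (0.04). Psmb8 in bur passed on the deposited log2 table (-0.45, adjusted p = 0.039).

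Testing the other kept probe of a gene was chosen after seeing the data. It turned Psma7 (-0.37 in laser, -0.28 in bur) and Psmg3 (-0.59, -0.56), and Psmb8 in bur (0.18). The replicate block gave 4 higher and 1 lower proteasome genes in laser, where Psmd7 was lost and Psmb3 gained, and 12 higher in bur, where Psmb7 was gained at 0.52 (adjusted p = 0.043) and Psmc3 was lost. The slide could not be fitted as a block, since no slide holds both ablated and control arrays. The number of arrays limits the precision of every value.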
